A study of Mus musculus with 26 samples.

Results

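The genes described here were the major histocompatibility complex (MHC) genes of the mouse, taken as every gene whose name on the array starts with H2-, plus B2m, Cd74, Tap1, Tap2, Tapbp, Psmb8 and Psmb9, whose products assemble or load MHC molecules. The array carried 49 of these genes on 80 probes, among 37074 gene names on 56605 probes. A filter on dim probes left 39 of the 49 genes, on 61 probes, to be tested among 25407 gene names on 38832 probes. The 39 were 3 class Ia heavy chains, 19 class Ib heavy chains, 6 genes of class I assembly, 5 chains of the class II complex, 5 class II peptide editors and H2-Ke6, an enzyme gene named for its place in the region. The 10 genes not tested were the class II pseudogene H2-Ea-ps and the class Ib genes H2-M1, H2-M5, H2-Q1, H2-M10.1, H2-M10.2, H2-M10.3, H2-M10.4, H2-M10.5 and H2-M10.6. H2-Ea-ps was well above background on 1 of 26 arrays.

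RNA came from inguinal subcutaneous white adipose tissue of male C57BL6/J mice, 1 mouse per array, after a 24 h fast and 18 h of refeeding with food and water containing 20% glucose. Mice lacking the glucose-sensing transcription factor ChREBP altogether (total ChREBP KO, Mlxipl-null, n = 7) were set against WT mice of the same line (n = 7). Mice lacking only the ChREBPβ isoform (ChREBPβ KO, n = 5), made by CRISPR/Cas9 deletion of exon 1b of Mlxipl in one-cell embryos, were set against WT mice of that line (n = 7). The deletions were present in the whole body and not in adipocytes alone, and the labels do not give the age of the mice or which founder line each ChREBPβ KO mouse came from. Adipoq, Plin1, Lep, Fabp4, Cidec and Lipe, markers of adipocytes, averaged between 14.53 and 15.62 on the log2 scale on all 26 arrays.

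MHC class I molecules are carried by nearly all nucleated cells and consist of a heavy chain paired with β2-microglobulin, the product of B2m. They present peptides cut by the proteasome, whose inducible subunits include those encoded by Psmb8 and Psmb9, carried into the endoplasmic reticulum by the Tap1-Tap2 transporter and loaded with the help of tapasin, encoded by Tapbp. MHC class II molecules are pairs of an alpha and a beta chain made mainly by B cells, dendritic cells and macrophages, are guided by the invariant chain (Cd74), and receive their peptides under the control of the editors H2-DM and H2-O. Class II transcription depends on the coactivator Ciita, which acts through the X and Y boxes of class II promoters, and class I transcription on Nlrc5 and interferon signals. A lymph node lies within the inguinal fat pad of the mouse.

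The sequences of the probes bear on how far class I genes can be told apart, since class I heavy chains are close copies of each other. Probes of H2-K1, H2-L and H2-T23, printed here, share a run of 29 bases, in capitals, out of 60, and lie in the mm9 build, the one the array annotation uses, at chr17:34133984-34134043, chr17:35403191-35403250 and within chr17:36167338-36167574. The H2-L probe lies 635 bases from the probe of H2-D1, and C57BL/6 mice carry no separate H2-L gene, so its signal is given under the name of the array. H2-K1 values are those of another, brighter H2-K1 probe, which does not carry this run, and the probe printed here differed by 0.08 in total ChREBP KO (adjusted p = 0.594).
H2-K1: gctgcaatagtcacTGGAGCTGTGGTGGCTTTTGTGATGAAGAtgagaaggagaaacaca
H2-L: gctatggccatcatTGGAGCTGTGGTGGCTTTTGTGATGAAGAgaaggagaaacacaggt
H2-T23: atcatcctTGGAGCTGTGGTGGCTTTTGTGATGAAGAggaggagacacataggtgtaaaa

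The promoters show a second difference between the classes. Of the 39 tested genes, 27 had an entry among the RefSeq promoters of the build GRCm38.p6, and the 250 bases before the start site were searched on both strands for letters chosen with these promoters in view. GATTGG, the core of the Y box, stood on the gene's own strand in 8 of 8 class II promoters and in 8.89% of 27025 promoters of all genes. CTAGCAAC, an X box sequence, stood in 3 of 8 class II promoters and in 1.33% of all promoters on either strand. The class II stretches printed here, with those letters in capitals, lie at chr17:34287859-34287880 (H2-Aa, minus strand), chr17:34305765-34305820 (H2-Eb1, plus), chr17:34238807-34238860 (H2-Ob, plus), chr17:34092327-34092348 (H2-Oa, plus) and chr17:34153121-34153142 (H2-DMb1, plus).
H2-Aa: aattttctGATTGGttctggcg
H2-Eb1: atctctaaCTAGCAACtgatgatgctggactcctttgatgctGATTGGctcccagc
H2-Ob: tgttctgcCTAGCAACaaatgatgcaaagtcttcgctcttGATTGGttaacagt
H2-Oa: actgctctGATTGGctgcttac
H2-DMb1: cactcagtGATTGGtctgacct

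Class I promoters held other letters. TTTCACTT, which resembles the interferon-stimulated response element, stood in 8 of 13 class I heavy chain promoters, in 0 of 8 class II promoters and in 1.62% of all promoters, and GGGGATT, part of an NF-kB site, in 6 of 13, 1 of 8 and 3.19%. GATTGG stood on the opposite strand in 8 of 13 class I heavy chain promoters and in 8.86% of all promoters. The stretches of H2-K1, H2-D1, H2-Q7 and H2-M3 show TTTCACTT, and for the first 3 GGGGATT before it, in capitals. They lie at chr17:34000422-34000466 (minus), chr17:35262915-35262959 (plus), chr17:35439014-35439057 (plus) and chr17:37270125-37270148 (plus) of GRCm38.p6. A match of letters is a description of the sequence and not a measured binding site.
H2-K1: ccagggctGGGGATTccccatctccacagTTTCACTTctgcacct
H2-D1: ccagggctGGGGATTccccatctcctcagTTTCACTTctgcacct
H2-Q7: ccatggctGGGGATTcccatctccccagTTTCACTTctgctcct
H2-M3: ctctgaggTTTCACTTctctgtaa

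On the 26 arrays the median spot intensity lay between 59 and 107.5, the share of probes well above background between 70.2% and 76.5%, and no spot was saturated. The Mlxipl probe with the largest change was lower by 2.29 on the log2 scale in total ChREBP KO (adjusted p = 1.86e-13) and by 1.52 in ChREBPβ KO (adjusted p = 6.2e-07), with no overlap between KO and WT arrays in either line. Another Mlxipl probe differed by -0.9 (adjusted p = 2.25e-06) and by -0.68 (adjusted p = 0.054, not passing). A further probe differed by -0.13 (adjusted p = 0.158) and by 0.04 (adjusted p = 0.97) and passed in neither KO. The arrays differed widely in their content of lymphocyte RNA. The mean log2 value of 16 B and T cell markers, called the lymphocyte score here, was 8.92 ± 1.36 (SD, n = 7) in total ChREBP KO, 10.99 ± 0.56 (n = 7) in WT of that line, 7.32 ± 0.53 (n = 5) in ChREBPβ KO and 7.15 ± 0.32 (n = 7) in WT of that line. In whole tissue, fewer cells of a type and less RNA per cell cannot be told apart. Array values below are log2 intensities after quantile normalization, they are comparable between arrays for a given probe but not between genes, and a gene passed the test where its Benjamini-Hochberg adjusted p over all probes in limma was below 0.05.

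In total ChREBP KO the MHC classes differed from WT in unlike ways. All 10 class II genes were lower, with a median difference of -1.39 on the log2 scale, while 4 of 22 class I heavy chains passed the test, with a median of -0.03. Of all 39 members 16 passed, 2 higher and 14 lower, with a median of -0.07. Among all 25407 genes 45.8% passed, 25.8% higher and 20.1% lower, with a median of 0.05, so the share of members that passed (41%) was near that of all genes. After scaling each array to its 75th percentile in place of quantile normalization, 17 members passed, 4 higher and 13 lower.

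The antigen-presenting chains of class II were lower in total ChREBP KO. H2-Ab1, the beta chain of the A molecule, had a lowest, median and highest value of 14.03, 14.59 and 15.05 in total ChREBP KO and of 14.65, 15.72 and 16.23 in WT. The KO arrays occupied the lower end and overlapped with the lowest WT arrays. The difference was -1.06 (SE 0.23, adjusted p = 0.000585), a 2.08-fold lower signal, and all 4 probes of H2-Ab1 were lower, by -1.50 to -1.06. Its partner H2-Aa lay at 10.52, 11.19 and 11.69 in KO against 11.51, 12.72 and 13.34 in WT (difference -1.46, SE 0.27, adjusted p = 0.000106). Each group of H2-Aa values overlapped the other only at its edge.

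H2-Eb1, the beta chain of the E molecule, lay at 13.89, 14.59 and 14.83 in KO and at 14.53, 15.74 and 16.17 in WT, a 2.14-fold difference (-1.1, SE 0.23, adjusted p = 0.00045). The alpha chain gene of the E molecule is named on the array as the pseudogene H2-Ea-ps, which was well above background on 1 of 26 arrays. Cd74, the invariant chain that occupies the groove until peptide is loaded, lay at 12.98, 13.56 and 14.36 in KO and at 13.75, 15.2 and 15.6 in WT (-1.33, SE 0.26, adjusted p = 0.000215). H2-Eb2, a second E-type beta chain gene, lay at 6.17, 7.13 and 7.91 in KO and at 7.98, 8.91 and 9.54 in WT. Among class II genes it alone had no overlap between KO and WT arrays, at a 3.47-fold lower signal (-1.80, SE 0.25, adjusted p = 2.93e-06), and its second probe was lower by 1.11 (adjusted p = 4.33e-06). Of all genes, 14.8% had arrays that did not overlap, against 4 of 39 members (B2m, H2-Eb2, H2-Q10 and H2-T24).

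The peptide editors had a median difference of -2.16, and the chains one of -1.33. H2-Ob, the beta chain of H2-O, a modulator of H2-DM made mainly by B cells, lay at 6.88, 9.19 and 10.53 in total ChREBP KO and at 9.79, 11.55 and 12.15 in WT. The KO values spread widely (SD 1.38 against 0.86 in WT), and the highest KO array lay above the lowest WT array. The difference was -2.41 (SE 0.45, adjusted p = 0.00013), a 5.31-fold lower signal. H2-Oa, its alpha chain, lay at 6.42, 8.58 and 9.87 in KO and at 9.28, 10.93 and 11.53 in WT (-2.40, SE 0.46, adjusted p = 0.000141).

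H2-DM, which frees the groove and helps peptide in, showed the same direction in its alpha and both beta chains. H2-DMb2 lay at 4.82, 6.45 and 7.29 in KO and at 6.98, 8.53 and 9.11 in WT (-2.16, SE 0.35, adjusted p = 2.04e-05). H2-DMa was lower by 1.3 (SE 0.24, adjusted p = 8.75e-05) and H2-DMb1 by 1.25 (SE 0.26, adjusted p = 0.000313). Replicates 3, 2 and 8 of total ChREBP KO were the highest of their group in H2-Ob, H2-Oa, H2-DMb2 and the B cell markers, in that order, and replicates 1 and 7 the lowest.

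**Figure D1:**
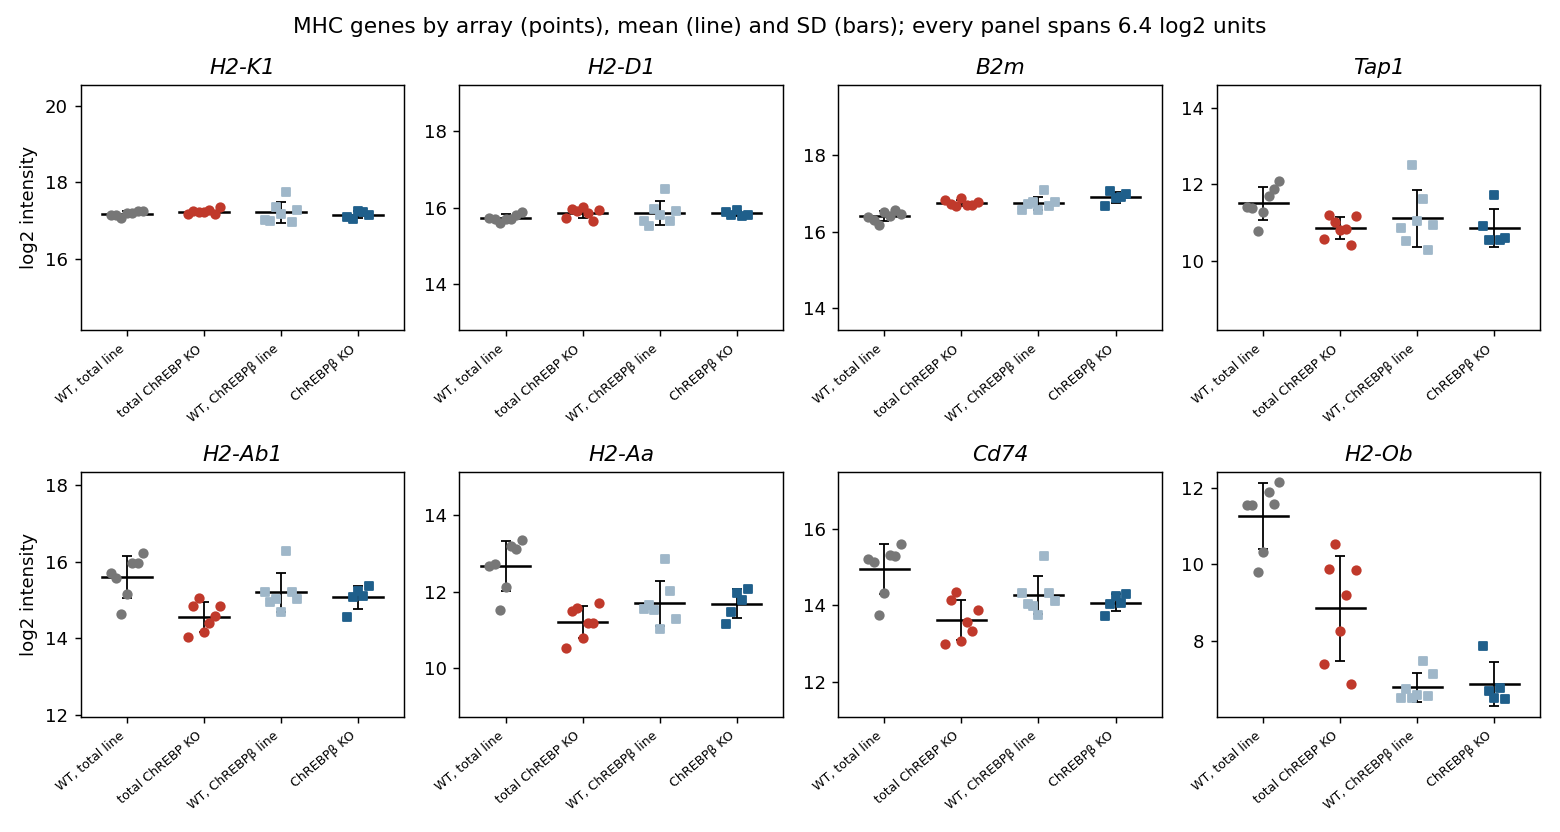
Log2 intensity (vertical axis) of 8 MHC genes on each array, by group (horizontal axis); points are arrays, lines group means and bars SDs, and every panel spans the same number of log2 units. H2-K1, H2-D1 and B2m stay within a narrow range, while H2-Ob runs from 6.88 to 10.53 within total ChREBP KO alone and lies at 6.5 to 7.48 in WT of the ChREBPβ line.

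The classical class I heavy chains, which present peptide to CD8 T cells, did not pass the test in total ChREBP KO. H2-K1 lay at 17.16, 17.23 and 17.34 in KO and at 17.06, 17.2 and 17.24 in WT, a difference of 0.06 with a 95% interval of -0.12 to 0.23. H2-D1 lay at 15.66, 15.91 and 16.02 in KO and at 15.59, 15.71 and 15.88 in WT (0.14, interval -0.07 to 0.34). The probe named H2-L lay at 15.32, 15.46 and 15.77 in KO and at 15.39, 15.54 and 15.71 in WT (-0.05, interval -0.27 to 0.16). The lowest of these bounds, -0.27, lay closer to 0 than the difference of any class II gene.

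Among the class Ib heavy chains, relatives of class I with narrower ligands, 4 of 19 passed. H2-M3, which presents formylated peptides, was lower by 0.85 (SE 0.17, adjusted p = 0.000296), from 10.66 ± 0.40 in WT to 9.81 ± 0.22 in total ChREBP KO. H2-Q10, a secreted heavy chain, lay at 13.25, 14.27 and 14.53 in KO and at 14.67, 14.9 and 15.02 in WT, with no overlap (-0.68, SE 0.19, adjusted p = 0.00507, not passing with the slide as a fixed block), and all 4 of its probes were lower, by -0.74 to -0.29. H2-T24 was lower by 0.59 (adjusted p = 0.0288), with KO arrays at 6.88 to 7.14 and WT arrays at 7.21 to 8.26. H2-T9 was the heavy chain that was higher, by 0.39 (SE 0.12, adjusted p = 0.00829). The other 15, H2-Bl, H2-K2, H2-M2, H2-M9, H2-M11, H2-Q2, H2-Q4, H2-Q5, H2-Q7, H2-Q8, H2-T3, H2-T10, H2-T18, H2-T22 and H2-T23, differed by -0.24 (H2-M2) to 0.27 (H2-T22) and did not pass. The probes of some class Ib genes disagreed, and a second H2-M2 probe was lower by 2.74 (adjusted p = 0.00229). The second probe of H2-T23, which does not carry the shared run printed above, was lower by 0.64 (adjusted p = 0.000613), and of 3 probes of H2-Q7 1 passed (-0.71, adjusted p = 0.00458) and the others differed by -0.02 and -0.23.

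The genes of class I assembly moved in different directions. B2m, the light chain shared by all class I molecules, lay at 16.67, 16.72 and 16.88 in total ChREBP KO and at 16.17, 16.41 and 16.56 in WT, with no overlap, and was 1.28-fold higher (0.35, SE 0.08, adjusted p = 0.000496). A second B2m probe differed by -0.28 and did not pass (adjusted p = 0.167), so the higher signal rests on 1 of 2 probes. Tap1, part of the peptide transporter, lay at 10.42, 10.84 and 11.21 in KO and at 10.79, 11.41 and 12.1 in WT (-0.64, SE 0.26, adjusted p = 0.048), and leaving out a single array ended that call in 17 of 26 fits. Psmb8, an inducible proteasome subunit, lay at 12.23, 12.7 and 12.93 in KO and at 12.71, 13.1 and 13.42 in WT (-0.41, interval -0.77 to -0.05, adjusted p = 0.0574). Psmb9 differed by -0.28 (adjusted p = 0.246), Tap2 by 0.14 (adjusted p = 0.277) and Tapbp by -0.03.

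Genes that act with the members were read from lists by role. The share of all genes that passed in total ChREBP KO was 45.8%, with 25.8% higher and 20.1% lower. Of 11 regulators of MHC transcription 5 passed in total ChREBP KO, and Ciita, the class II coactivator, was lower by 1.82 (adjusted p = 5.86e-05) while Nlrc5, its class I counterpart, differed by -0.17 (adjusted p = 0.401). Of 8 other genes of the class II route 7 were lower, among them Ctss, a protease that trims the invariant chain (-1.74), Ifi30, a thiol reductase of the endosome (-1.42), and the costimulatory molecules Cd40 (-1.57) and Cd86 (-1.18). Of 10 other genes of the class I route 6 passed, 5 of them higher by 0.15 to 0.30 (Calr, Canx, Pdia3, Psmb6 and Psmb7, chaperones and constitutive proteasome subunits), and Tapbpl, a tapasin relative, lower by 0.92 (adjusted p = 7.63e-09). Of 6 MHC-like genes encoded outside the region 3 were higher, namely Hfe, a regulator of iron uptake (1.68, adjusted p = 5.94e-10), Cd1d1, which presents lipids (1.01, adjusted p = 1.92e-07), and Fcgrt, the neonatal Fc receptor (0.96, adjusted p = 2.21e-11).

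Markers of immune cells moved with the class II genes. The shares of all genes that passed in total ChREBP KO were 20.1% lower and 25.8% higher. In total ChREBP KO 8 of 8 B cell markers were lower (median -2.11), 8 of 8 T cell markers (median -2.43) and 4 of 4 markers of lymph node stroma and venules (median -2.86), while 4 of 7 dendritic cell markers (median -0.47) and 2 of 7 macrophage markers (median -0.52) were lower and 5 of 6 adipocyte markers were higher (median 0.64). The mean of the lymph node markers ran from 7.67 to 12.08 in total ChREBP KO and from 12.07 to 13.56 in WT. The mean of the B cell markers ran from 6.79 to 9.41 and from 8.93 to 10.72. Cd3e, a defining marker of T cells, was well above background on all 26 arrays. The mean of the skeletal muscle markers was 11.27 ± 2.86 in total ChREBP KO and 8.26 ± 2.81 in WT. The part of dendritic cells, macrophages and muscle in the class II differences was not tested gene by gene.

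**Figure D2:**
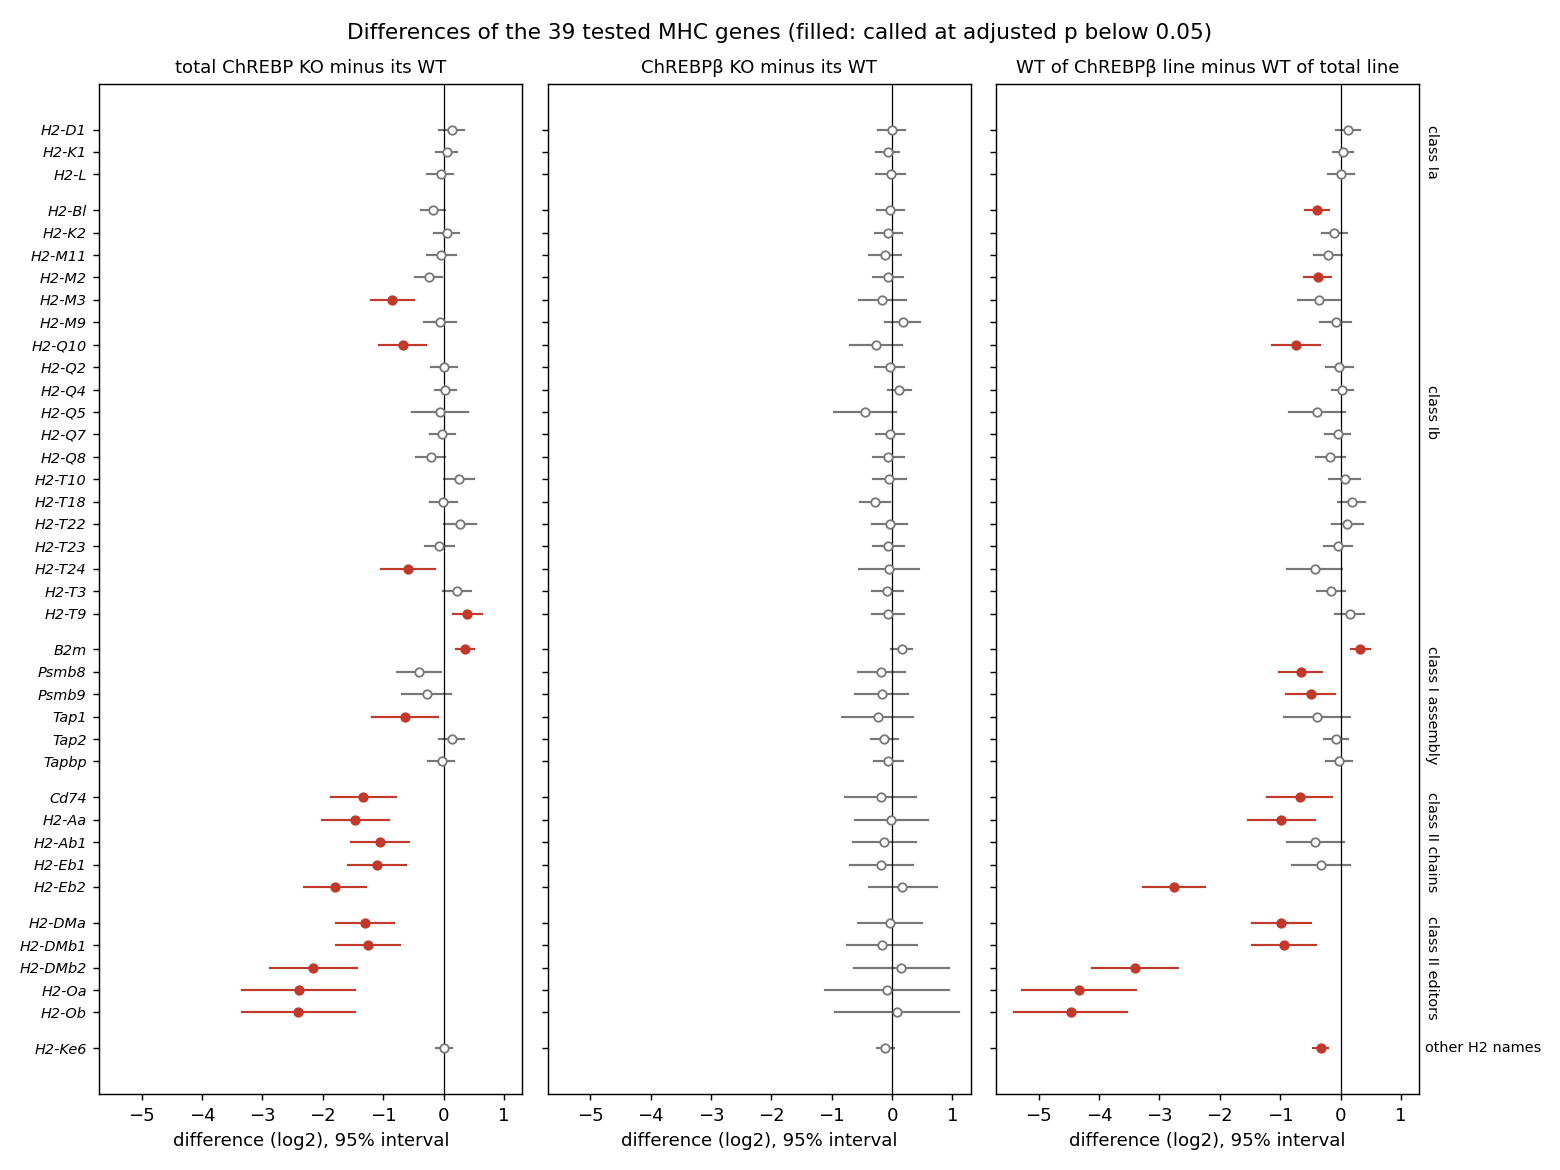
Log2 difference (horizontal axis) with its 95% interval for each of 39 MHC genes (vertical axis, grouped by role), in 3 panels: total ChREBP KO against WT, ChREBPβ KO against WT, and the WT group of the ChREBPβ line minus that of the total line; filled red points passed the test. The 10 class II genes lie to the left of 0 in the first panel, no gene passed in the second, and the editors H2-Ob and H2-Oa lie at -4.47 and -4.33 in the third.

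In ChREBPβ KO 0 of 39 members passed the test in limma, 1 had an unadjusted p below 0.05, and the median difference was -0.06. Among all genes 0.0512% (13 of 25407) passed, with a median of 0. The arrays of 0 members, and of 0.366% of all genes, did not overlap between ChREBPβ KO and WT. The members with the largest absolute differences were class Ib genes. H2-Q5 was at 12.34, 11.81, 12.6, 11.82 and 11.69 on the 5 KO arrays and at 11.61, 12.58 and 13.42 (lowest, median and highest) in WT, a difference of -0.45 with an interval of -0.96 to 0.06. H2-T18, the member with an unadjusted p below 0.05 (adjusted p = 0.548), was at 4.99, 5.16, 5.09, 5.19 and 4.92 in KO and at 5.04, 5.39 and 5.59 in WT (-0.28). H2-Q10 was at 14.25, 13.11, 14.11, 14.25 and 13.55 in KO and at 13.53, 14.21 and 14.59 in WT (-0.26). Every one of these groups overlapped.

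Class II values in ChREBPβ KO lay within the range of WT or close to it. H2-Ab1 was at 14.56, 15.07, 15.24, 15.12 and 15.36 in KO and at 14.68, 15.04 and 16.28 in WT (-0.13, interval -0.65 to 0.39). H2-Aa was at 11.14, 11.47, 11.95, 11.79 and 12.06 in KO and at 11.01, 11.54 and 12.84 in WT (-0.01, interval -0.62 to 0.60). H2-Eb1 was at 14.55, 15.06, 15.1, 15.25 and 15.28 in KO and at 14.69, 15.1 and 16.31 in WT (-0.18, interval -0.70 to 0.35). The groups overlapped throughout, and the highest WT value of all 3 genes belonged to replicate 6. Cd74 was at 13.72, 14.03, 14.24, 14.05 and 14.29 in KO and at 13.74, 14.12 and 15.29 in WT (-0.19, interval -0.78 to 0.40).

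Of the editors, H2-Ob, H2-Oa and H2-DMb2 gave low signals in both groups of the ChREBPβ line. The means of H2-DMa were 9.28 in KO and 9.32 in WT, and those of H2-DMb1 11.79 and 11.96. H2-Ob was at 7.87, 6.7, 6.52, 6.76 and 6.48 in KO and at 6.5, 6.58 and 7.48 in WT (0.08, interval -0.95 to 1.1). H2-Oa was at 7.37, 5.89, 6.04, 5.92 and 5.68 in KO and at 5.87, 6.13 and 7.21 in WT (-0.08, interval -1.11 to 0.94). H2-DMb2 was at 5.47, 4.95, 4.61, 4.94 and 5.01 in KO and at 4.71, 4.77 and 5.18 in WT, where it was well above background on 3 of 7 arrays. Replicate 1 of ChREBPβ KO was the highest of its group in H2-Ob, H2-Oa and H2-DMb2 and had the highest lymphocyte score of its group, 8.17. The intervals of H2-Ob and H2-Oa are wide enough to hold a change of up to about 1 log2 unit either way.

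Class I values in ChREBPβ KO were close to WT. H2-K1 was at 17.1, 17.03, 17.26, 17.22 and 17.14 in KO and at 16.96, 17.17 and 17.74 in WT (-0.07, interval -0.26 to 0.12). H2-D1 was at 15.88, 15.82, 15.95, 15.78 and 15.82 in KO and at 15.52, 15.8 and 16.49 in WT (0, interval -0.23 to 0.22). The H2-L probe was at 15.53, 15.46, 15.6, 15.51 and 15.62 in KO and at 15.16, 15.52 and 16.2 in WT (-0.02, interval -0.26 to 0.21). For all 3 probes the KO arrays lay inside the WT range.

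In class I assembly, B2m was at 16.67, 17.06, 16.88, 16.89 and 16.97 in ChREBPβ KO and at 16.55, 16.71 and 17.09 in WT (0.16, interval -0.01 to 0.33). Tap1 was at 10.92, 10.55, 11.72, 10.56 and 10.61 in KO and at 10.28, 10.94 and 12.52 in WT (-0.24, interval -0.83 to 0.35). Psmb8 was at 12.17, 12.12, 12.76, 12.01 and 12.05 in KO and at 11.95, 12.14 and 13.06 in WT (-0.18, interval -0.57 to 0.21). Replicate 4 was the highest KO array for both Tap1 and Psmb8. None of the regulators, pathway genes, MHC-like genes, interferon genes or cell type markers passed in ChREBPβ KO.

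**Figure D3:**
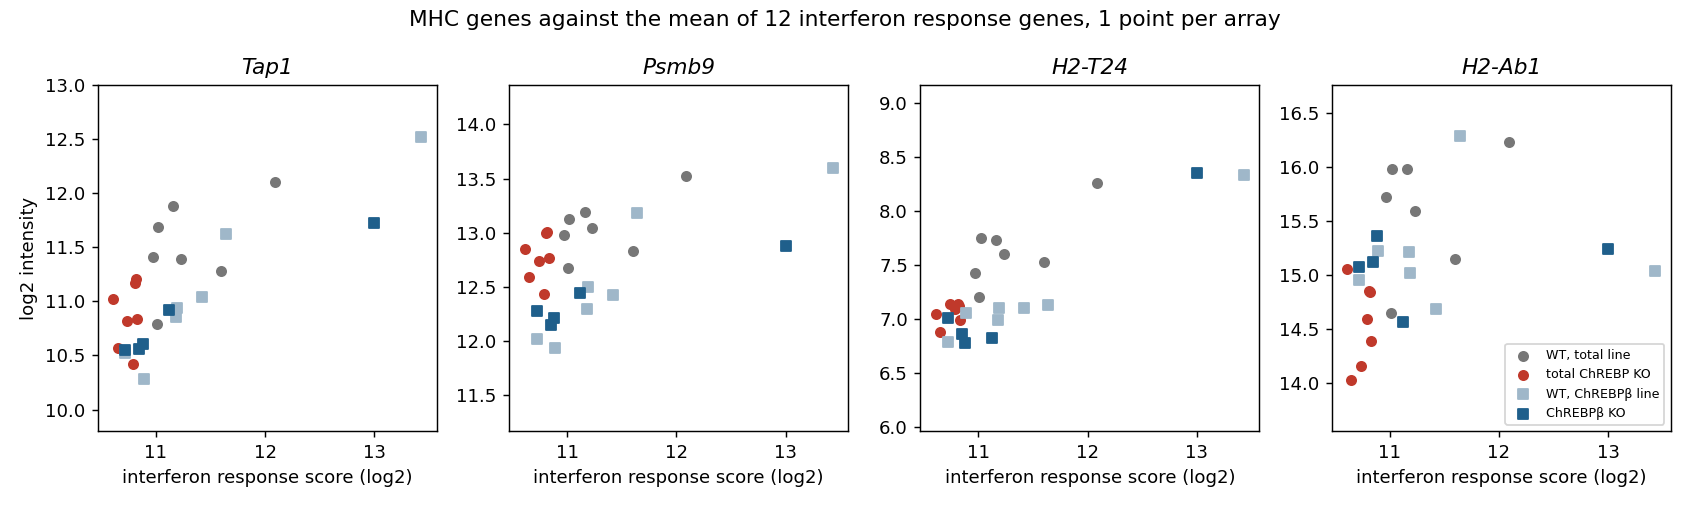
Log2 intensity of Tap1, Psmb9, H2-T24 and H2-Ab1 (vertical axes) against the mean log2 value of 12 interferon-induced genes (horizontal axis), 1 point per array, coloured by group. The arrays farthest to the right are replicate 3 of WT of the ChREBPβ line at 13.43 and replicate 4 of ChREBPβ KO at 13, and both are high in Tap1 and H2-T24.

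The interferon genes varied widely between arrays of the ChREBPβ line. Their mean was 11.31 ± 0.95 (SD, n = 5) in ChREBPβ KO, 11.50 ± 0.91 (n = 7) in WT of that line, 10.75 ± 0.09 (n = 7) in total ChREBP KO and 11.30 ± 0.41 (n = 7) in WT of that line. On the arrays with the highest interferon means, 13.43 and 13, H2-T24 was 8.33 and 8.35, against 7.13 and 7.01 on the next highest array of the same groups. In total ChREBP KO 4 of the 12 interferon genes passed, against 45.8% of all genes. Usp18 (-1.3), Oas1a (-1.17) and Igtp (-0.96) were lower and Cxcl9 (0.69) was higher. The part of the interferon genes in the Tap1, Psmb8 and H2-T24 values was not tested.

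Whether the 2 KO effects differed was tested as the ChREBPβ KO effect minus the total ChREBP KO effect. For 8 of 39 members the difference passed, all of them class II and all higher, that is with a less negative or slightly positive effect in ChREBPβ KO. WT of the ChREBPβ line started lower, with a mean H2-Ob of 6.79 against 11.26 in WT of the total line, and H2-DMb2 of 4.84 against 8.25. Where the signal is that low, less room is left for a decrease in ChREBPβ KO, and the part of this was not tested. Among all genes 23.2% passed, 10.1% higher and 13.1% lower. The median over the 10 class II genes was 1.36 and over all genes -0.04. H2-Ob differed by 2.49 (adjusted p = 0.00996), H2-DMb2 by 2.31 (adjusted p = 0.00242), H2-Eb2 by 1.97 (adjusted p = 0.000513) and H2-Aa by 1.45 (adjusted p = 0.0112). H2-Ab1 (0.93, adjusted p = 0.0522) and H2-Eb1 (0.92, adjusted p = 0.0566) did not pass, nor did any class I gene at its brightest probe. The second probes of H2-M2 (3.00, adjusted p = 0.0375) and H2-T23 (0.69, adjusted p = 0.018) did. Of the B cell markers 8 of 8 and of the T cell markers 7 of 8 passed in the same direction. With the slide as a fixed block only H2-Eb2 passed.

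The 2 WT groups, which carry no deletion, differed from each other in the MHC genes too. This comparison, the KO comparison of the total line and the test of the difference share the WT arrays of the total line, so their values are not independent of each other. In WT of the ChREBPβ line 15 of 39 members (38.5%) passed when set against the WT group of the total line, 1 higher and 14 lower, with a median of -0.33. Among all genes 45.9% passed, 26.2% higher and 19.6% lower, with a median of 0.03. Under scaling to the 75th percentile the median of all genes was -0.09, their split 5070 higher and 7395 lower, and 18 members passed, all lower. The arrays did not overlap for 6 members (H2-Eb2, H2-DMb2, H2-Oa, H2-Ob, H2-Q10 and H2-Ke6) and for 17% of all genes.

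At their brightest probes, the genes with the largest differences were the editors H2-Ob, H2-Oa and H2-DMb2. H2-Ob ranged over 6.5 to 7.48 in the ChREBPβ line WT and over 9.79 to 12.15 in the total line WT and was lower by 4.47 (SE 0.45, adjusted p = 4.27e-08), a 22.2-fold lower signal. H2-Oa, at 5.87 to 7.21 against 9.28 to 11.53, was lower by 4.33 (20.1-fold, adjusted p = 6.78e-08), and H2-DMb2, at 4.71 to 5.18 against 6.98 to 9.11, by 3.41 (adjusted p = 4.45e-08), with 3 of 7 arrays of the ChREBPβ line WT well above background. H2-Eb2 was lower by 2.76 (6.78-fold, adjusted p = 1.08e-08), and its second probe, not well above background in WT of the ChREBPβ line, was at least 2.48-fold lower (adjusted p = 3.58e-08), a bound set by the dimmest probes that were well above background. The other editors, H2-DMa (-0.98, adjusted p = 0.00145) and H2-DMb1 (-0.93, adjusted p = 0.00446), and the main class II chains had smaller differences. H2-Aa was lower by 0.98 (adjusted p = 0.00461) and Cd74 by 0.68 (adjusted p = 0.036). The Cd74 call held in 17 of 26 fits that each left out 1 array. H2-Ab1 (-0.42, interval -0.89 to 0.06) and H2-Eb1 (-0.33, interval -0.81 to 0.15) did not pass, and of the 4 H2-Ab1 probes 1 passed (adjusted p = 0.008). In 2 of 26 such fits H2-Ab1 passed, without replicate 6 of the ChREBPβ line WT (-0.59, adjusted p = 0.0223) and without replicate 4 of the total line WT (-0.58, adjusted p = 0.0312).

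Of the class I genes, few separated the WT groups. H2-K1 differed by 0.04, H2-D1 by 0.12 and the H2-L probe by 0.01. H2-Q10 (-0.74, adjusted p = 0.00259), H2-Bl (-0.39, adjusted p = 0.00209) and H2-M2 (-0.38, adjusted p = 0.00558) were the heavy chains that were lower at their brightest probe. Other probes disagreed with these calls in part. The second H2-Bl probe differed by -0.09 and did not pass, and the second H2-M2 probe was lower by 5.73 (adjusted p = 3.91e-07). Further probes of H2-T23 (-0.68), H2-T24 (-0.52) and H2-Q7 (-0.35 and -0.85) were lower and passed. Psmb8 (-0.66, adjusted p = 0.00321) and Psmb9 (-0.49, adjusted p = 0.044) were lower, and leaving out 1 array kept the Psmb9 call in 16 of 26 fits. B2m was higher by 0.33 (adjusted p = 0.000766), but its second probe differed by -0.06, and under scaling to the 75th percentile B2m differed by 0.09 to 0.10 and did not pass. H2-Ke6, which encodes a 17-beta-hydroxysteroid dehydrogenase and presents nothing, was lower by 0.33 on both of its probes (adjusted p = 0.000107), with no overlap. Differences of haplotype between the lines were not tested here.

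Cell type markers separated the WT groups as well. The shares of all genes that passed in this comparison were 26.2% higher and 19.6% lower. In WT of the ChREBPβ line 8 of 8 B cell markers (median -3.84), 8 of 8 T cell markers (median -4.32) and 4 of 4 lymph node markers (median -5.30) were lower, with a lymph node mean of 7.38 to 7.79 against 12.07 to 13.56, and Blk, a B cell kinase, was well above background on 0 of 7 arrays against 7 of 7. Macrophage markers went the other way, with 5 of 7 higher (median 0.86), and of the dendritic cell markers 2 were higher and 4 lower of 7. Ciita was lower by 2.07, and Cd83 (-2.09), Cd40 (-1.51) and Ctss (-1.04) were among 5 of 8 class II route genes that were lower.

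**Figure D4:**
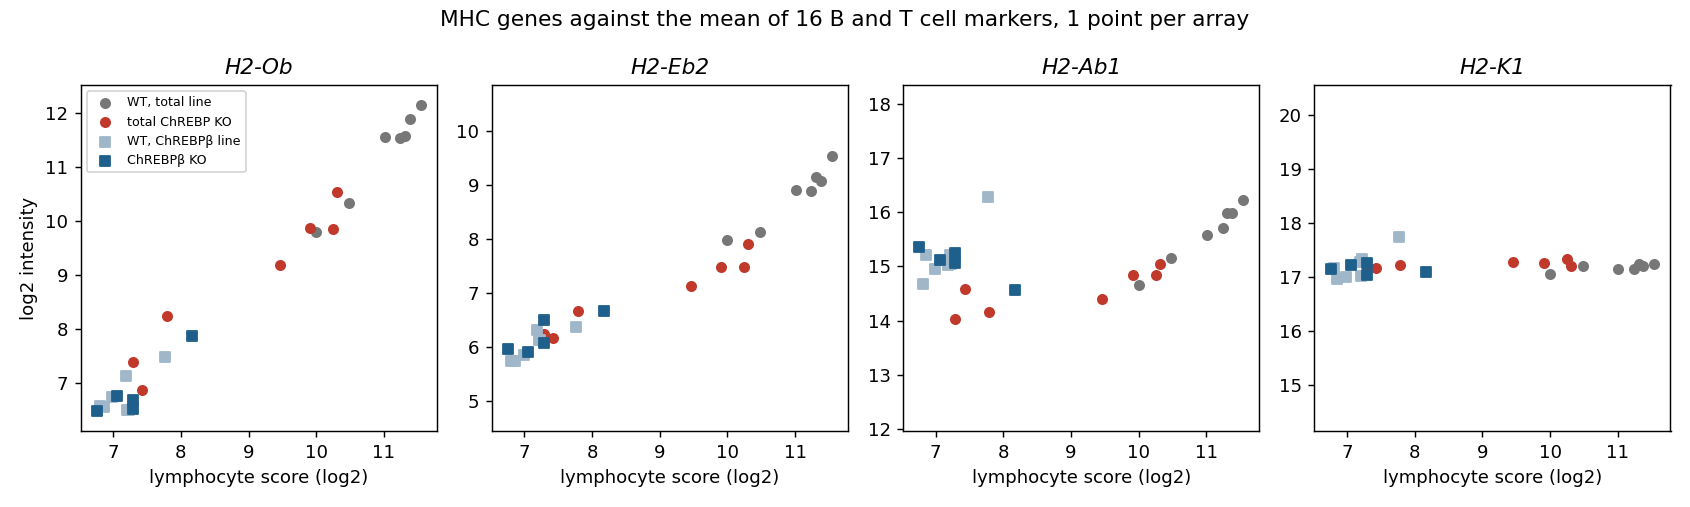
Log2 intensity of H2-Ob, H2-Eb2, H2-Ab1 and H2-K1 (vertical axes) against the mean log2 value of 16 B and T cell markers (horizontal axis), 1 point per array, coloured by group. H2-Ob and H2-Eb2 are high where the score is high, from about 7 in the ChREBPβ line to 11.54 in WT of the total line, H2-Ab1 spans 14.65 to 16.23 in that WT group and 14.68 to 16.28 in the other, and H2-K1 stays between 16.96 and 17.74. The H2-Ab1 value of 16.28 is that of replicate 6 alone, and the next highest of its group is 15.22.

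The arrays of total ChREBP KO spread along the lymphocyte score from 7.29 to 10.31, and the class II genes did not all follow it to the same extent. Replicate 7 was the lowest of its group in H2-Ob (6.88), H2-Oa (6.42) and H2-DMb2 (4.82) but held the median of H2-Ab1 and H2-Eb1 (14.59 in each). Across lines, WT of the ChREBPβ line had a lower lymphocyte score than every WT array of the total line (6.81 to 7.77 against 10 to 11.54), while its H2-Ab1 values overlapped theirs. Replicate 6 held the highest H2-Ab1 value of the ChREBPβ line WT, 16.28, and the next was 15.22. These are descriptions over arrays that share their groups, with no test.

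With the lymphocyte score as a covariate in the fit, 5 of 39 members passed in total ChREBP KO. The score ran from 7.29 to 10.31 in KO and from 10 to 11.54 in WT. With so narrow an overlap, score and genotype can be separated only in part. The 10 class II genes were all still negative, with a median of -0.46 in place of -1.39, and 1 of them passed, H2-Eb2 (-0.65, SE 0.16, adjusted p = 0.00482). H2-Ob differed by -0.24 (adjusted p = 0.521), H2-Oa by -0.19 (adjusted p = 0.572), H2-DMb2 by -0.60 (adjusted p = 0.0894) and H2-Aa by -0.72 (adjusted p = 0.157). The other 4 that passed were class I genes and all higher: B2m (0.35, adjusted p = 0.03), H2-T9 (0.54, adjusted p = 0.0251), H2-T22 (0.50, adjusted p = 0.0494) and H2-T10 (0.49, adjusted p = 0.0471). Tap1 differed by -0.02. Over all genes 3901 of 25407 passed with this covariate, against 11644 without it, so calls were lost among all genes too.

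In the comparison of the WT groups the covariate left 1 member that passed, H2-T3 (-0.72, adjusted p = 0.0487), and moved the class II median from -0.98 to 0.38, with 6 genes positive and 4 negative. For the difference between the KO effects it left H2-Eb2 (0.74, adjusted p = 0.0281). The shares of all genes that passed with the covariate are not given here for either comparison. The score did not overlap between the WT groups, so the covariate and the line cannot be told apart there. B2m kept its size in total ChREBP KO, 0.35 with and without the covariate.

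**Figure D5:**
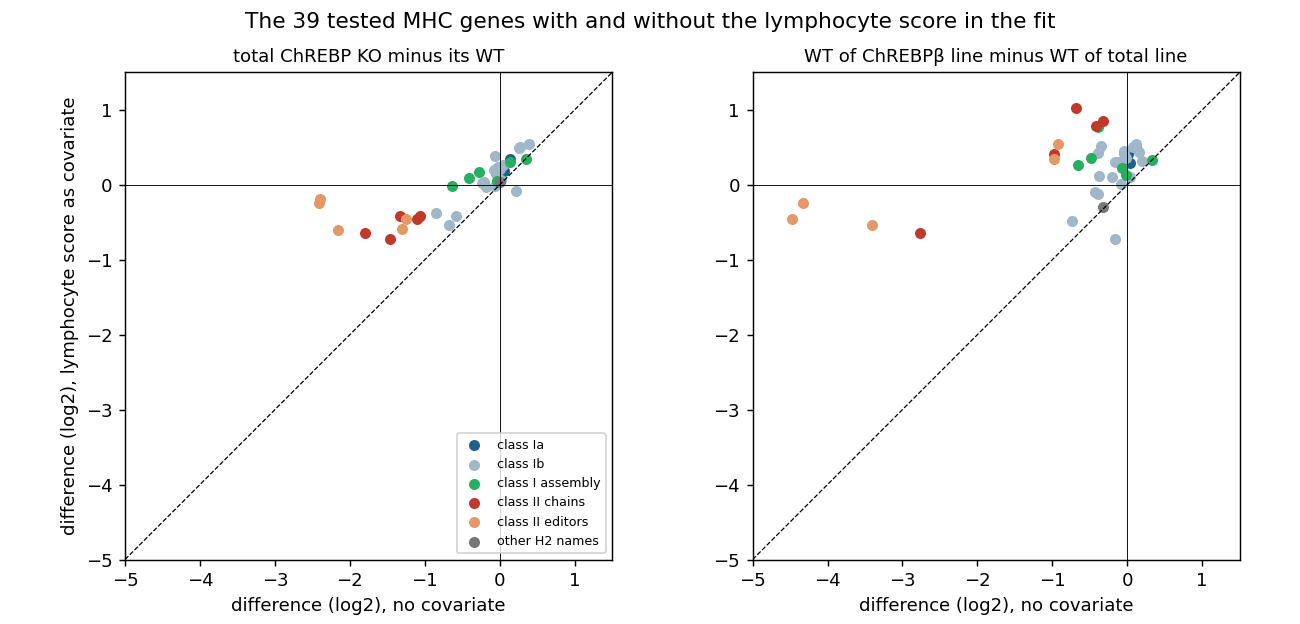
Log2 difference of each of 39 MHC genes without (horizontal axis) and with (vertical axis) the lymphocyte score as a covariate, for total ChREBP KO against WT and for WT against WT, coloured by class, with a dashed line where both are equal. Class II genes lie well off the line, with a median of -0.46 in place of -1.39 in total ChREBP KO and of 0.38 in place of -0.98 between the WT groups.

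Each wash batch of the hybridisation held total ChREBP KO and WT arrays, and the differences were recomputed within each. Every batch held only 1 or 2 total ChREBP KO arrays and 1 or 2 WT arrays of that line. Members measured on the same arrays are not independent of each other. The median over the editors was -0.83, -1.36, -2 and -3.19 in batches 1 to 4, that over the class II chains -0.17, -1.02, -1.35 and -2, and that over the class Ia genes 0.12, 0.10, 0.08 and -0.08. Of the 16 members that passed, 15 had the same sign in all 4 batches, the exception being Tap1, which differed by 0.00 in batch 1. Between the WT groups the editors' median was -2.24, -3.62, -3.41 and -3.89 and the chains' median -0.01, -1.11, -0.50 and -0.86, and all 15 members that passed kept their sign. Batch 1 held 1 array of each WT group. ChREBPβ KO arrays were present in batches 1, 3 and 4, where the median of the class II chains was 0.14, 0 and -0.37.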

How the data were processed

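Total RNA of 26 mice was labelled with Cy3 and hybridised to 1-colour Agilent 8x60K arrays, read by the authors with Agilent Feature Extraction 10.10.1.1. The deposited scanner files hold each spot's intensity, and the authors' value table holds log2 intensity of 40168 probes after their filter and quantile normalization. Values here were rebuilt from the deposited median intensity, without background subtraction: spots had to be well above background on 21 of 26 arrays or on 75% of the arrays of a group, 97 outlier values were set to missing, log2 was taken, spots of a probe were reduced to their median, and arrays were quantile normalized. The authors' methods name normalization before the median, but this order gave 99.4% of the authors' values within 0.001, with a largest difference of 0.0777.

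One linear model with a mean per group was fitted in limma 3.58.1 (R 4.3.3, 22 residual degrees of freedom) and p-values were adjusted over 38832 probes. A gene stands for its tested probe of highest mean. Intervals are 95% and unadjusted. Every tested member was kept, and values by array are given for class Ia genes, B2m, the main class II chains, Cd74, H2-Ob, Tap1, Psmb8 and the 3 largest differences of each comparison. Others are summarised. Probes are named as the array file names them. The members, marker lists and pathway lists were chosen with earlier results of these data known. Per the study's methods the mice came from several litters. The test was tested on simulated data, where it recovered 95.5% of probes changed by 1 log2 unit in total ChREBP KO and 92.5% in ChREBPβ KO. For changes of 0.5 log2 units the shares were 65.2% and 62.1%. The changed probes, 66 or 67 of 38832 for each size and the same in both KOs, were drawn at random with independent noise. How strict the adjusted p is depends on how many probes change. In the data 13 genes passed in ChREBPβ KO and 11644 in total ChREBP KO. The shares therefore do not carry over to the cut of these data. They also do not hold for genes that vary more, such as H2-Ob (SE 0.5 in ChREBPβ KO). The number of arrays limits the precision.

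Alternatives were the authors' table, other scaling, background correction and filters, blocks for wash batch, slide and replicate number, array weights, lymphocyte and muscle covariates, other probes, separate fits and leaving out each array. Replicate numbers were not taken to pair the samples.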

Additional observations from a re-analysis of the deposited data

Results flagged for a closer look

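Of 156 sets of a gene and a group, 18 held an array that stood apart from the others by Dixon's criterion, and chance alone gives about 1 in 20. The genes of a group share its arrays, so the sets are not separate trials and no excess over chance can be read from their number. In WT of the ChREBPβ line replicate 6 was the highest array, with the next highest in parentheses, for H2-Ab1 at 16.28 (15.22), H2-Eb1 at 16.31 (15.19), Cd74 at 15.29 (14.32), H2-Oa at 7.21 (6.38), H2-DMb2 at 5.18 (4.88), B2m at 17.09 (16.78), H2-K2 at 16.39 (15.83) and H2-M2 at 14.16 (13.59). The same array had the highest means of its group for the macrophage (13.21), dendritic cell (8.48) and T cell (9.10) markers, whose part in these values was not tested.

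In ChREBPβ KO replicate 4 stood apart as the highest for H2-T24 at 8.35 (7.01), H2-M3 at 10.71 (10.03), H2-T22 at 13.24 (12.89), H2-T23 at 15.87 (15.66) and Psmb8 at 12.76 (12.17), and it had the highest interferon mean of its group, 13. Replicate 3 of WT of that line stood apart for H2-T24 at 8.33 (7.13), with an interferon mean of 13.43. Replicate 1 of ChREBPβ KO stood apart for H2-Ob at 7.87 (6.76) and H2-Oa at 7.37 (6.04). In total ChREBP KO replicate 7 was the lowest for H2-Q10 at 13.25 (14.1) and H2-Q5 at 11.94 (12.81). This array also had the highest skeletal muscle mean of its group, 15.16, and the lowest median intensity of all arrays, 59, and the part of either was not tested.

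The 8 class II genes whose KO effects differed between the lines in limma were H2-Ob (2.49), H2-Oa (2.31), H2-DMb2 (2.31), H2-Eb2 (1.97), H2-Aa (1.45), H2-DMa (1.27), Cd74 (1.14) and H2-DMb1 (1.08), given as the ChREBPβ KO effect minus the total ChREBP KO effect in log2 units, with adjusted p from 0.000513 for H2-Eb2 to 0.042 for H2-DMb1. Leaving out 1 array kept the call of Cd74 in 11 of 26 fits and that of H2-DMb1 in 8 of 26, and those of the other 6 in all 26.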

How the results depend on the processing

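The number of members that passed was 16 in total ChREBP KO, 0 in ChREBPβ KO, 8 for the difference between the effects and 15 between the WT groups, and the authors' own table gave the same genes. Leaving out each array in turn gave 14 to 19, 0 to 0, 6 to 11 and 13 to 20, the 20 without replicate 6 of WT of the ChREBPβ line. With the lymphocyte score, and with the lymphocyte and muscle scores, as covariates the counts fell to 5 and 5 in total ChREBP KO, 1 and 1 for the difference, and 1 and 0 between the WT groups. In total ChREBP KO calls were lost over all genes too, as given above for the lymphocyte score. Shares over all genes are not given here for the other comparisons, so the fall there cannot be read as particular to the members. With the slide as a fixed block 11 members passed in total ChREBP KO, 1 for the difference and 12 between the WT groups, where B2m (0.23), H2-Q10 (-0.60) and Psmb9 (-0.83) lost their calls. Leaving out replicates 3 and 6 of WT of the ChREBPβ line together, chosen after seeing the data, gave 25 between the WT groups. Among members that passed, the direction reversed under the covariates and no other alternative, between the WT groups (lymphocyte score, then both scores) for Cd74 (1.02, 1.00), H2-Aa (0.41, 0.40), H2-DMa (0.35, 0.33), H2-DMb1 (0.55, 0.53), H2-M2 (0.12, 0.14), Psmb8 (0.27, 0.26) and Psmb9 (0.36, 0.35), and for the difference H2-Oa (-0.07, -0.19) and, with both scores, H2-Ob (-0.01). Members that did not pass changed sign more often, for example H2-Ab1 (-0.70 to 0.78) and H2-Eb1 (-0.66 to 0.85) between the WT groups. The cause was not tested. Replicate numbers were not taken to pair the samples. Of the same-numbered pairs 3 of 6, 1 of 4 and 2 of 6 correlated above 0.1, with values from -0.35 to 0.51 in the total line. With so few pairs and no differently numbered pairs beside them, these values cannot decide whether the numbers mark pairs. With the replicate block the counts were 15, 0, 10 and 14. Tap1 passed in total ChREBP KO under 8 of 17 alternatives (adjusted p = 0.00928 to 0.983). B2m and H2-T9 lost their call there only with the slide as a fixed block (0.22 and 0.10), H2-Q10 with that block (-0.75) and the covariates, and H2-T24 with both of these and the wash batch block (-0.54). H2-T10 (0.31) and H2-T22 (0.38) passed under scaling to the 75th percentile. H2-M10.6 passed in total ChREBP KO when no probe was filtered. Dim genes are limited by signal over background: H2-DMb2 was well above it on 3 of 7 WT arrays of the ChREBPβ line.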
